A study of Homo sapiens with 3 samples.

Results

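The members are 10 genes of the hypoxia pathway, HIF1A, EPAS1, VHL, EGLN1, EGLN3, VEGFA, CA9, ADM, BNIP3 and PDK1. They were chosen by name, and binding of the transcription factor TFE3 was read in a window that covers each gene's span on hg19 plus 5 kb on either side. Of the 47396 summits of HA-tagged TFE3 found in both libraries of the study, 30 lay in these 10 windows, which cover 466 kb.

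The study mapped HA-TFE3 by chromatin immunoprecipitation and sequencing in HK-2 cells, an immortalised line from human kidney proximal tubule. The cells make HA-TFE3 when given doxycycline, and all samples share this inducible gene. The 3 samples are 2 HA-TFE3 libraries (replicates 1 and 2), precipitated through the HA tag, and 1 input DNA library that was not analysed here. The protocol lists 24 h with or without 0.2 µg/ml doxycycline, but the labels do not say which libraries were induced, name no low-oxygen treatment and do not say whether the line is a single clone. Each HA-TFE3 library is a list of summits, single bases that mark the top of a bound region, with a score given by the authors. The lists hold 62287 summits in replicate 1 and 72647 in replicate 2 on chromosomes 1 to 22 and X, and read depth is unknown. Nothing states that the replicates came from separate cultures, so their spread may be technical. With 1 precipitated group and no control list, the design allows no test between groups, and every comparison here is a description.

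Cells sense oxygen through hypoxia-inducible factors. Prolyl hydroxylases use oxygen to mark the alpha subunits, the VHL protein recognises the mark and the subunits are destroyed. When oxygen falls the alpha subunits persist, pair with ARNT and switch on genes for angiogenesis, glycolysis and mitophagy by binding short sequences called hypoxia response elements. Loss of VHL drives clear cell renal carcinoma, a tumour of proximal tubule cells. TFE3, of the MiT/TFE family, carries a basic helix-loop-helix and leucine zipper, binds E-box sequences and is best known for lysosomal and autophagy genes, and fusions of its gene drive another type of renal carcinoma.

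Shared HA-TFE3 summits were found at 9 of the 10 genes, and CA9 had none. Of genome tiles as long as the windows, 14.7% (for the shortest) to 51.7% (for the longest) held a shared summit, and these tiles include stretches without genes. A shared summit is a pair from the 2 lists in which each is the nearest of the other at most 100 bp away. Replicate 1 had 38 summits in the windows and replicate 2 had 51, a mean of 44.5 ± 9.19 (SD, n = 2). The pairs made up 78.9% of the window summits of replicate 1 (95% exact binomial interval 62.7 to 90.4), against 76.1% over its whole list. In replicate 2 they made up 58.8% (44.2 to 72.4), against 65.2% over its whole list. Both whole-list shares lay inside the intervals of the windows. Intervals here cover counting error only.

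The windows held 64.4 shared summits per Mb (95% Poisson interval 43.4 to 91.9), against 15.6 per Mb over the genome. That is 4.12 times the genome average. For all summits the ratio was 3.98 in replicate 1 and 4.57 in replicate 2, or 4.27 ± 0.424 (SD, n = 2). The genome average includes long stretches without genes, and the density over all genes was not measured here, so these ratios do not set the 10 genes apart from other genes. The ratio took lower values among high-scoring summits, but on few pairs and without an interval, so a fall is not resolved. Restricted to summits that scored above their list's median it was 3.5, from 27.9 per Mb in the windows against 7.97 in the genome and resting on 13 pairs. With only the 10000 top-scoring summits per library it was 2.9, from 6.44 against 2.22 per Mb and resting on 3 pairs.

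Summits were unevenly spread over the genes. EGLN1 had 7 shared summits, EPAS1 had 6 and HIF1A had 5. ADM and BNIP3 had 3 each, EGLN3 and PDK1 had 2 each, and VHL and VEGFA had 1 each. EGLN1 and EPAS1 together thus held 13 of the 30. Per length the order was different, because the windows run from 13 kb for ADM to more for EPAS1, the longest. ADM had 2.31 shared summits per 10 kb (95% Poisson interval 0.476 to 6.74), BNIP3 1.20 (0.247 to 3.51) and EGLN1 0.972 (0.391 to 2.0). HIF1A had 0.794, EPAS1 0.577, EGLN3 0.526, VHL 0.417, VEGFA 0.357 and PDK1 0.250 per 10 kb. These intervals overlap throughout, so the order per length is not resolved by these counts.

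**Figure D1:**
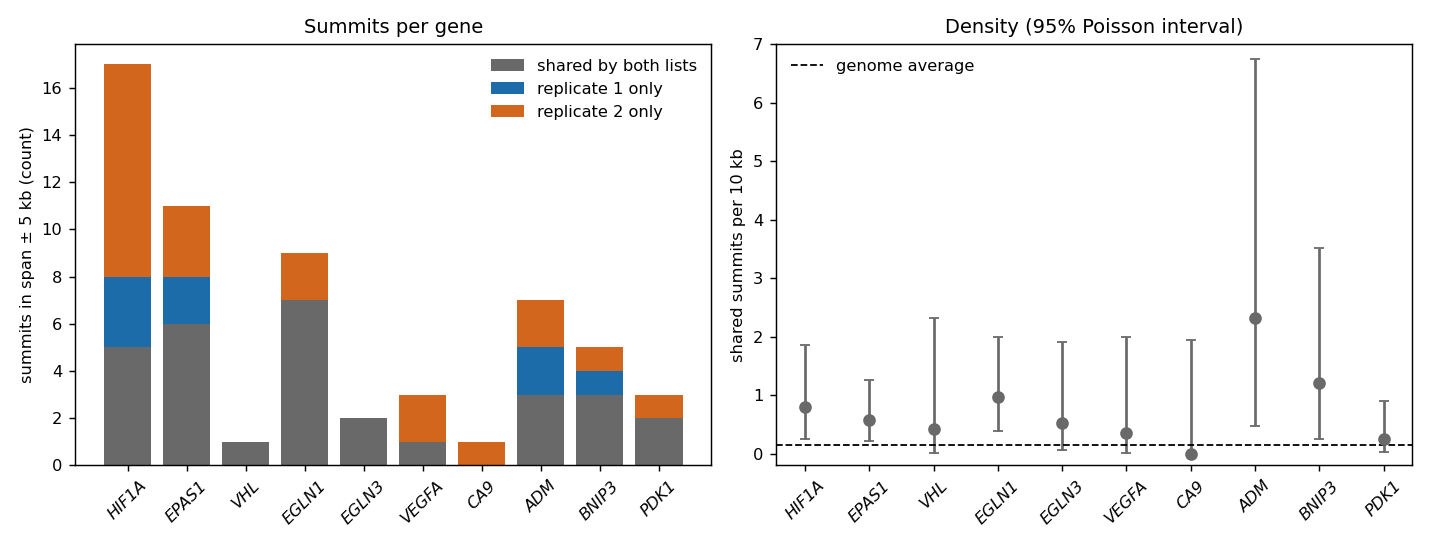
The left panel stacks, for each gene, the summits shared by both lists and those found only in replicate 1 or only in replicate 2, counted in the gene span plus 5 kb on either side. The right panel gives shared summits per 10 kb with 95% Poisson intervals beside the genome average (dashed line). EGLN1 has the most shared summits (7), HIF1A the most summits in 1 list, and CA9 has no shared summit.

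Scores rank summits within their own list and are given below as a percentile, the rank of the score among all summits of that list. The scale of the score is not given, so strong and weak refer here to this rank and not to measured binding. The 30 shared summits of the windows had a median percentile of 53.7 in replicate 1 and 54.1 in replicate 2, against 59.1 and 64.3 over all shared summits. In the highest decile were 2 of the 30 in replicate 1 and 4 of the 30 in replicate 2. Over all shared summits, 12.3% lay in the highest decile of replicate 1 and 14.5% in that of replicate 2. These were the start summits of HIF1A and PDK1 in both lists, and those of VHL and EGLN3 in replicate 2. Most other HA-TFE3 summits at these genes ranked in the middle or lower part of the lists.

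A gene's start was taken as the 5′ end of its span. The spans are given in whole kb, so the start is known to about 1 kb at best. A gene can also have further starts inside its span, whose hg19 positions were not used here, so a summit counted as inside a gene may lie at such a start. Within 2 kb of the start, 7 of the 10 genes had a shared summit, namely HIF1A, VHL, EGLN3, VEGFA, ADM, BNIP3 and PDK1. In 4 kb tiles along the genome the share with one was 5.40%, a background that again includes stretches without genes. With a limit of 5 kb the count was 9, since EGLN1 and EPAS1 had shared summits 2.6 kb and 4.4 kb inside the span. Whether these 2 lie at a start inside the span was not determined. The count of 7 may therefore be too low, and the medians below may place these 2 in the wrong group. The 8 shared summits within 2 kb had a median percentile of 63.2 in replicate 1 (range 0.82 to 98.9) and 83.3 in replicate 2 (20.6 to 99.2). The other 22 had medians of 53.7 (1.91 to 86.8) and 54.1 (15.3 to 83.9). The ranges overlap widely, and the difference was not tested.

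**Figure D2:**
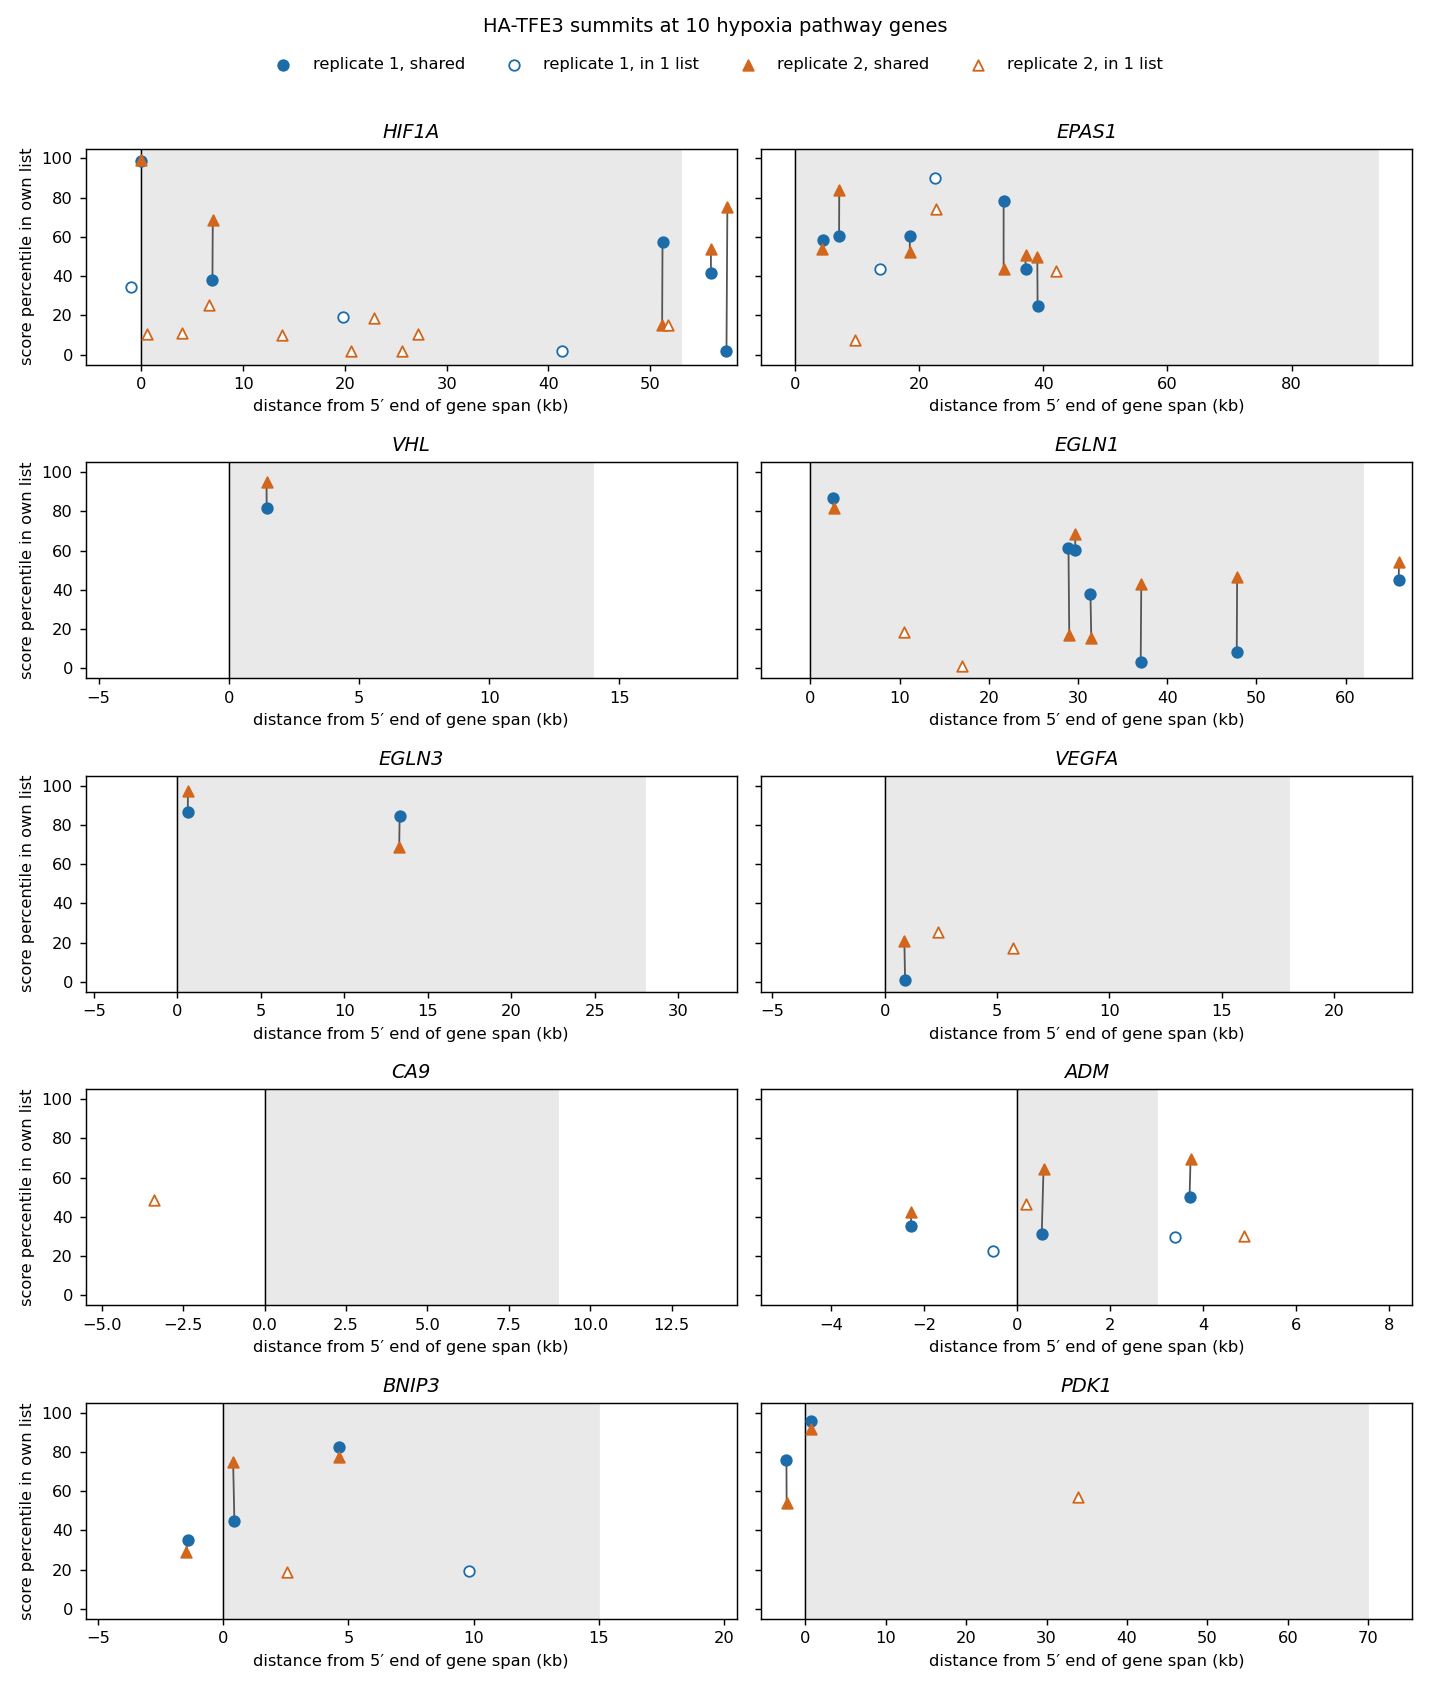
Each panel shows 1 gene, with the distance from the 5′ end of its span in kb on the x axis, in the direction of transcription, and the score percentile of each summit in its own list on the y axis. Grey marks the gene span, circles are replicate 1, triangles are replicate 2, filled symbols joined by a line are shared and open symbols were found in 1 list. The highest symbols of HIF1A, VHL, EGLN3 and PDK1 lie near the start, and those of EPAS1 lie in the first part of the gene.

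HIF1A encodes the oxygen-regulated alpha subunit for which the pathway is named, and had the strongest summit of the set. It lay at base 62161940 of chromosome 14 in replicate 1 and base 62161963 in replicate 2, 60 and 37 bp upstream of the start as given. Its score was 47.4 in replicate 1 and 53.8 in replicate 2. These scores ranked 707 and 598 in the lists, at percentiles 98.9 and 99.2, so both libraries placed it near the top. RefSeq lists the antisense RNA HIF1A-AS1 as overlapping HIF1A. Where it lies against this summit was not determined, so the position does not tell which of the 2 genes the summit serves.

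The promoter of HIF1A is shown because this summit lies close to the start as given. The sequence is from RefSeq on GRCh38.p14, chr14:61695263-61695562, plus strand, from 250 bases before the first listed start to 50 after it. The summits are on hg19, so their place within the printed bases was not determined. In all promoters printed here, capitals mark matches on either strand to the E-box CACGTG, to TCATGTG, a site of the MiT family, and to ACGTG and GCGTG, the core of hypoxia response elements. Since CACGTG contains ACGTG on both strands, it also counts as a core match. Only these letters were searched, so other forms of the E-box were not counted.
HIF1A: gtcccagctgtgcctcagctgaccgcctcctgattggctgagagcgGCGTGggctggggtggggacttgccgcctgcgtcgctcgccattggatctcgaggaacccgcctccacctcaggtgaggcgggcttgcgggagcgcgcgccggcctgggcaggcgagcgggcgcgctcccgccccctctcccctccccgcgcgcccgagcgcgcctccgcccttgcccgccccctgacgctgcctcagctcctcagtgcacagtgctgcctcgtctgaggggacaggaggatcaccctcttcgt

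The only match in HIF1A was GCGTG on the plus strand, from base -204 to -200 relative to the start. The letters CACGTG are not in this window. Of 35116 RefSeq promoters of this length, 7.26% hold CACGTG, 2.92% hold TCATGTG, 21.4% hold ACGTG and 36.5% hold GCGTG, counting both strands.

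The other 4 shared summits of HIF1A were weaker. The pair 7.0 kb inside the gene, at bases 62168975 and 62169009, had percentiles of 37.9 and 68.9. Near the far end, the pair at bases 62213210 and 62213172 had percentiles of 57.2 and 15.3. Past the end of the span, the pair at bases 62217966 and 62217967 had 41.7 and 54.1. The last pair, at bases 62219496 and 62219584, stood at percentile 1.91 in replicate 1 and 75.2 in replicate 2, a gap of 73.3 that was the largest of the 30 pairs. The antisense RNAs HIF1A-AS2 and HIF1A-AS3 overlap HIF1A in RefSeq. HIF1A also had 3 summits only in replicate 1, at percentiles of 1.91 to 34.6, and 9 only in replicate 2, at 1.91 to 25.3, so none of its unpaired summits reached the middle of a list. Of genome tiles of 63 kb, the length of this window, 41.2% held a shared summit.

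EPAS1 encodes the other main alpha subunit, which is known as the driver of clear cell renal carcinoma after loss of VHL. It had 6 shared summits of middling score, all in the first 39.1 kb of a span of 94 kb. The highest pair lay 7.0 kb and 7.1 kb inside the span, at bases 46527048 and 46527073 of chromosome 2, with percentiles of 60.5 and 83.9. Next was the pair 33.6 kb inside, at bases 46553580 and 46553576, with percentiles of 78.3 and 43.8. The pair at 18.5 kb and 18.4 kb had percentiles of 60.4 and 52.5, and the pair nearest the start, at bases 46524404 and 46524371, had 58.2 and 54.1. The pair at 37.1 kb had 43.7 and 50.6, and the last, at 39.1 kb and 39.0 kb, had 24.8 and 49.99.

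The strongest EPAS1 summit of replicate 1 did not count as shared, while that of replicate 2 was the pair at 7.1 kb. The one of replicate 1 lay at base 46542438 with a score of 24.8 and a percentile of 89.9. Its nearest summit in replicate 2 lay at base 46542641 with a score of 15.4 and a percentile of 74.2. The 2 lay 203 bp apart, beyond the limit of 100 bp, and became a pair at a limit of 500 bp. From base 46562058 to the end of the window, 56.9 kb, neither list had a summit. Of genome tiles as long as the whole EPAS1 window, 104 kb, 51.7% held a shared summit. The RefSeq promoter of EPAS1 held 1 GCGTG and no CACGTG.

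VHL encodes the part of an E3 ubiquitin ligase that recognises hydroxylated alpha subunits. Both lists had a single summit in its window of 24 kb, 5 bp apart, at bases 10183455 and 10183450 of chromosome 3. Its score was 18.5 in replicate 1 and 33.7 in replicate 2, at percentiles of 81.7 and 94.8. It lay 1455 and 1450 bp inside the span. A shared summit was present in 23.2% of genome tiles of 24 kb.

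EGLN1 encodes the main prolyl hydroxylase that marks the alpha subunits in normal oxygen. It had the most shared summits, 7, and each of the 7 summits of replicate 1 had a partner. The strongest lay nearest the start, at bases 231558445 and 231558359 of chromosome 1, with scores of 21.8 and 19.2 and percentiles of 86.8 and 81.7. Another 3 lay between 28.9 kb and 31.5 kb inside the span. Of these, the pair at bases 231531321 and 231531284 had percentiles of 60.0 and 68.5, and the pair at bases 231532061 and 231531974 had 61.2 and 17.0. The third, at bases 231529601 and 231529502, was 99 bp apart, at the limit of the pairing, and had 38.1 and 15.3.

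The remaining pairs of EGLN1 were weak in 1 or both lists. The pair past the far end of the gene, at bases 231495035 and 231495018, had percentiles of 44.7 and 54.1. The pair 47.8 kb inside had 8.16 and 46.7, and the pair 37.0 kb and 37.1 kb inside had 3.02 and 43.1. Replicate 2 also had 2 unpaired summits, at percentiles of 1.06 and 18.7. With a limit of 50 bp between partners, EGLN1 had 3 shared summits and lost the one near the start, whose partners lay 86 bp apart. A tile of this window's length, 72 kb, held a shared summit in 44.0% of cases. Its RefSeq promoter, chr1:231422238-231422537 on the minus strand, held 1 ACGTG on the plus strand of the gene, from base -13 to -9.

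EGLN3 encodes another prolyl hydroxylase, whose gene is itself known to be switched on by hypoxia-inducible factors. Both lists had the same 2 summits in its window and no other. The first lay 627 and 632 bp inside the span, at bases 34420373 and 34420368 of chromosome 14, with a score of 21.7 in replicate 1 and 40.1 in replicate 2. Its percentiles were 86.8 and 97.0, the third highest mean percentile of the 30 pairs after those of HIF1A and PDK1. The second lay 13.3 kb inside the gene, at bases 34407686 and 34407713, with percentiles of 84.4 and 68.9. Genome tiles of 38 kb held a shared summit in 31.3% of cases. Where the first summit lies against the RefSeq promoter of EGLN3 was not determined. That promoter is shown because it held none of the searched letters (RefSeq, GRCh38.p14, chr14:33951025-33951324, minus strand).
EGLN3: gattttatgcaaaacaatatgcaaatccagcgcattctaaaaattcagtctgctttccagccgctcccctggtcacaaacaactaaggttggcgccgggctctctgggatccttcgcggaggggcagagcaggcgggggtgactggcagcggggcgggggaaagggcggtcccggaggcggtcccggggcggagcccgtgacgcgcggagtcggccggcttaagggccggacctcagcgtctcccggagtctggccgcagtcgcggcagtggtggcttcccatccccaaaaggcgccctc

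VEGFA encodes the main angiogenic growth factor of the pathway. It had 1 shared summit, 905 and 873 bp inside the span at bases 43737905 and 43737873 of chromosome 6, and this was the weakest pair of the set. Its score was 2.17 in replicate 1 and 4.83 in replicate 2, at percentiles of 0.82 and 20.6. Replicate 2 had 2 further summits without a partner, at percentiles of 25.3 and 17.2. So neither list placed a VEGFA summit above percentile 25.3. The share of 28 kb genome tiles with a shared summit was 25.7%.

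CA9 encodes a carbonic anhydrase of the cell surface that is a well known hypoxia target and a marker of clear cell renal carcinoma. Its window of 19 kb held no summit in replicate 1 and 1 in replicate 2, 3386 bp upstream of the start at base 35669614 of chromosome 9, with a score of 8.30 and a percentile of 48.7. Within the gene itself neither list had a summit. Of genome tiles of 19 kb, 19.6% held a shared summit, a background that includes stretches without genes. Each other window of the set held at least 1. The count of 0 allows up to 1.94 shared summits per 10 kb (upper 95% Poisson limit). The nearest shared summit upstream lay 7.7 kb and 7.8 kb before the start, outside the window, at percentiles of 58.7 and 87.6. A missing summit does not show that TFE3 was absent, since read depth and the threshold of the lists are unknown. The CA9 promoter is shown for contrast (RefSeq, GRCh38.p14, chr9:35673678-35673977, plus strand).
CA9: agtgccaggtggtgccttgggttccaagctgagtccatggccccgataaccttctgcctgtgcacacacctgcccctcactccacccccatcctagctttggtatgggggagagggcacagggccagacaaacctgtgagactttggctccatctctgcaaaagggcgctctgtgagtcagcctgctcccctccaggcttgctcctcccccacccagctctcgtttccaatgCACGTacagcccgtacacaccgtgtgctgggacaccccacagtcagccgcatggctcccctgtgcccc

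It held 1 ACGTG, on the minus strand from base -18 to -14, and no CACGTG.

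ADM encodes adrenomedullin, a peptide that widens blood vessels. It had 3 shared summits in the smallest window, 13 kb. The one 530 and 568 bp inside the span, at bases 10326530 and 10326568 of chromosome 11, had percentiles of 31.5 and 64.5. The pair 2.3 kb upstream, at bases 10323723 and 10323718, had 35.3 and 42.3. The highest of the 3 lay 3.7 kb from the start, past the end of the gene, at bases 10329708 and 10329729, with 50.1 and 69.5. All were of middling or low rank, and each list had 2 further summits without a partner, at percentiles of 22.4 to 46.7. In RefSeq SBF2 and the RNA CAND1.11 lie beside ADM, so the position of the summits outside the span does not tell ADM from its neighbours. Of genome tiles of 13 kb, 14.7% held a shared summit. The ADM promoter held 1 GCGTG and no CACGTG.

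BNIP3 encodes a mitochondrial outer membrane protein that recruits autophagosomes to mitochondria, and so joins the hypoxia response to autophagy. It had 3 shared summits. The strongest lay 4.6 kb inside the gene, at bases 133791374 and 133791388 of chromosome 10, with scores of 18.7 and 16.8 and percentiles of 82.5 and 77.6. The one closest to the start, about 0.4 kb inside the span at bases 133795556 and 133795606, had percentiles of 44.7 and 74.8. The third lay 1415 and 1492 bp upstream, at bases 133797415 and 133797492, with 35.3 and 28.9. Each list also had 1 summit without a partner, at percentiles of 19.2 and 18.7. Of genome tiles of 25 kb, 23.8% held a shared summit, and PPP2R2D overlaps BNIP3 in RefSeq.

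BNIP3 was the only 1 of the 8 genes with a RefSeq promoter sequence whose window held CACGTG. The CACGTG lies from base -134 to -129 before the start, and 4 GCGTG matches, all on the minus strand, lie on both sides of it (RefSeq, GRCh38.p14, chr10:131981874-131982173, minus strand). The sequence is shown because letters of both motifs stand side by side in it, and whether either is bound was not tested.
BNIP3: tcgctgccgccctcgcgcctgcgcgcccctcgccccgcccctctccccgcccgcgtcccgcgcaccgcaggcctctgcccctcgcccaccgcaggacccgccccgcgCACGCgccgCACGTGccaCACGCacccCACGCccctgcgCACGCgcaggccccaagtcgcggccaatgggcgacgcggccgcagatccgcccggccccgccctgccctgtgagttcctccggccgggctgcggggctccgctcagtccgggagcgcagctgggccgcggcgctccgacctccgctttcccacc

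PDK1 encodes a kinase that shuts off pyruvate dehydrogenase and so lowers the use of pyruvate by mitochondria. Its summit near the start was the second highest of the set by mean percentile, at bases 173420722 and 173420729 of chromosome 2, 7 bp apart. Scores were 33.6 in replicate 1 and 28.6 in replicate 2, at percentiles of 95.7 and 91.7. The other pair lay 2.4 kb and 2.3 kb upstream, at bases 173417631 and 173417654, with percentiles of 75.8 and 54.1. The remainder of the gene held a single summit, 33.8 kb inside and only in replicate 2, at percentile 57.0. Of genome tiles of 80 kb, 46.2% held a shared summit, and PDK1-AS1 overlaps the gene in RefSeq.

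The strong summit lies 722 and 729 bp past the start as given in whole kb, which is known to about 1 kb at best. RefSeq lists starts of PDK1 that lie 717 bases apart, and the place of the summit against either was not determined. The window of the second of these starts is shown because it held searched letters (RefSeq, GRCh38.p14, chr2:172555840-172556139, plus strand).
PDK1: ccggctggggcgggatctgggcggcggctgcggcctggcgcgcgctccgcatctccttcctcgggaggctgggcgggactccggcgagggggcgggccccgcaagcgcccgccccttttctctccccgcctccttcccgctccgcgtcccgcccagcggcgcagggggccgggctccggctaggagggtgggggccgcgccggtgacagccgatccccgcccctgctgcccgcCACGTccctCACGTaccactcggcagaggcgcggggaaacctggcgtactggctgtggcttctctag

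It held 2 ACGTG matches on the minus strand, from base -17 to -13 and from -8 to -4, while the window of the first start held no searched letters. Over the 8 genes with a promoter sequence, 1 held CACGTG, 0 held TCATGTG, 4 held ACGTG and 4 held GCGTG. These genes have 10 windows, as HIF1A and PDK1 have 2 each, and the counts of windows were the same. Over all RefSeq promoters of this length the shares per window were 7.26%, 2.92%, 21.4% and 36.5%, in the same order. With 8 genes no difference from them is claimed. The 4 with ACGTG were EGLN1, CA9, BNIP3 and PDK1. HIF1A and PDK1, which had the highest start summits, held no CACGTG in their windows. BNIP3, which held one, had a start summit of lower rank than theirs in both lists. Where the summits lie within these windows was not determined, and a link between letters and rank was not tested.

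Scores of the 30 pairs varied between the libraries. Spearman's correlation of the percentiles was 0.565 across the 30 pairs, beside 0.729 across all 47396 pairs of the genome. Pairs of the same gene share their library and their neighbourhood, so no p-value is given. The median gap between the 2 percentiles of a pair was 17.4 points. In 18 pairs the percentile was higher in replicate 2 and in 12 it was higher in replicate 1. Within the highest summits of HIF1A, PDK1, EGLN3, VHL and EGLN1 the gap was 0.31, 3.95, 10.2, 13.1 and 5.16 points. These pairs were picked for high percentiles, which limits how large their gap can be. Partners lay 1 to 99 bp apart with a median of 29.5 bp, against 26 bp over all pairs, and 4 pairs were more than 80 bp apart.

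**Figure D3:**
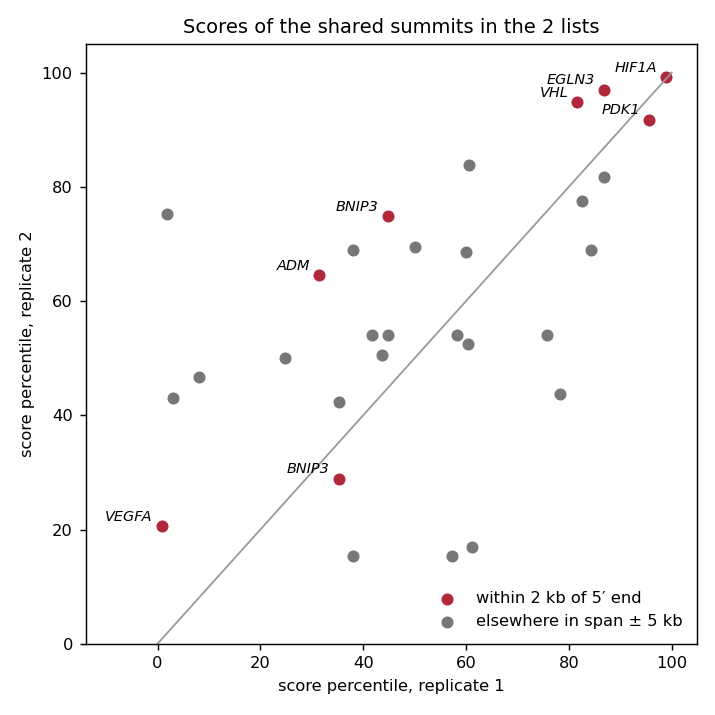
Each point is 1 of the 30 shared summits, with its score percentile in replicate 1 on the x axis and in replicate 2 on the y axis. Red points lie within 2 kb of the 5′ end of the gene span and carry the gene's name, grey points lie elsewhere in the window, and the line marks equal percentiles. HIF1A, PDK1, EGLN3 and VHL sit at the upper right, VEGFA sits at the lower left, and the grey points scatter widely.

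Summits without a partner were mostly weak. The 8 in replicate 1 had a median percentile of 26.2 and the 21 in replicate 2 had 18.7, against 24.8 and 27.4 for all unpaired summits of each list. Above the median of its list stood 1 of the 8, at EPAS1, and 2 of the 21, at EPAS1 and PDK1. Scores also repeat exactly. In replicate 2 a score of 9.50 was shared by 1650 summits, among them 4 of the 30 pairs, at HIF1A, EPAS1, EGLN1 and PDK1. The percentiles of such summits therefore carry no finer order.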

How the data were processed

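HA-TFE3 ChIP-seq lists of 2 replicates were used, and the input library was not analysed here. The authors deposited, per library, 1 bp summits with a score. The scale of the score is not given in the sources used, so it served only to rank summits within a list. Coordinates are hg19, per the submitters' processing notes, and were written 1-based. The aligner, the peak caller, its threshold and any use of the input are likewise not given there. Each of these sets how many summits a list holds.

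Summits outside chromosomes 1 to 22 and X were left out (35 in replicate 1 and 45 in replicate 2). Summits were paired across lists when mutually nearest and at most 100 bp apart, and assigned to a gene within its span plus 5 kb on either side. Spans were given in whole kb. Tiles are consecutive windows of 1 length along all chromosomes used, with lengths from GenomeInfoDb 1.38.1, and count a pair at its midpoint. Percentiles use mean ranks for ties. Intervals are exact (Clopper-Pearson or Poisson) at 95%. Promoters and gene neighbours came from RefSeq tables on GRCh38.p14, by symbol. Of the 10 genes, 8 matched a promoter. No hg19 gene table was used, so further pathway genes such as ARNT were not counted and no density over all genes was computed. Pairing was tested on simulated lists. Python 3.11.15, NumPy 2.4.6, pandas 2.3.3, SciPy 1.17.1 and matplotlib 3.10.9 were used.

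The members and all lists were chosen with earlier results of these data known. All 10 genes are described, with every shared summit or, beyond 5, the highest 5 by mean percentile and the rest by their values. The alternatives were limits of 50, 200 and 500 bp, no flank or 10 kb, summits above the median score, the 10000 highest-scoring summits, start windows of 1 and 5 kb, and each library alone.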

Additional observations from a re-analysis of the deposited data

How the results depend on the processing

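Limits on score changed the counts most, but they remove summits everywhere, so counts fall by construction. The genome average fell too, from 15.6 shared summits per Mb to 7.97 above the median score and 2.22 with the 10000 highest-scoring summits. The ratio of windows to genome was 4.12, 3.5 and 2.9 in that order, a fall that is not resolved. The median highest percentile covers only genes that keep a shared summit, so such limits tend to raise it. With summits above the median score there were 13 shared summits (27.9 per Mb), against 30 (64.4) with all summits. The median per gene was 1 against 2.5, and 4 genes against 7 had one near the start. The median highest percentile was 86.2 against 84.2. With the 10000 highest-scoring summits 3 genes (HIF1A, EGLN3 and PDK1) had 3 shared summits (6.44 per Mb), all near the start, with a median of 0 per gene and a median highest percentile of 93.7. Without the flank the median was 1.5 per gene, with ADM and PDK1 at 1 each, and the median highest percentile 80.01, where the start summit of HIF1A, just outside its span, no longer counted. A limit of 50 bp gave 80.01, and EGLN1 was the only gene whose highest percentile changed, to 64.3 from 84.2. A flank of 10 kb gave 82.1, with CA9 gaining a shared summit at a mean percentile of 73.2. The cause of these shifts was otherwise not tested. Each library alone gave 9 to 10 genes with a summit, 38 to 51 summits, 3.98 to 4.57 times the genome average, 7 to 7 genes with one near the start and a median highest percentile of 82.8 to 86.8. Of the values of single genes under the alternatives, 23 moved and 103 did not. No paired analysis was possible because only 1 group has summit lists. Depth is unknown, so absent summits show no absence of binding.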
